A study of Arabidopsis thaliana with 12 samples.

Results

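Unheated flowers of an XBAT31 mutant of Arabidopsis thaliana were compared with unheated wild-type flowers, across all genes of the deposited table. The comparison rested on 6 of the 12 libraries of the series: 3 of the XBAT31 mutant at 22 °C and 3 of the wild type (WT) at 22 °C, each chosen by its genotype and temperature labels. Of 27715 genes in the table, 23585 had enough counts to be tested and 4130 did not. The other 6 libraries, 3 of the mutant and 3 of the wild type after 3 hours at 38 °C, entered the same fit and gave a second reading of the genes found at 22 °C. Each library held messenger RNA from 9 flowers, of developmental stages 1 to 12. The submitters' design calls the replicates biological, and the labels do not say whether they came from separate plants or days, so p-values reflect only how far these samples vary, which may be technical. Neither the mutant allele, nor the wild-type accession, nor the number of mutant lines was stated in the labels.

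XBAT31 codes for a protein with ankyrin repeats and a RING domain, the domain by which many E3 ubiquitin ligases hand ubiquitin to a target protein. In Arabidopsis it is known to act on ELF3, a component of the evening complex that restrains growth in warmth, and on the class B heat shock factors HSFB2A and HSFB2B during heat. A change in a ubiquitin ligase acts on proteins, so messenger RNA shows its targets only indirectly. Many of the genes described here belong to the rapid stress response of plants, in which wounding, touch, calcium, microbial chitin or ethylene raise a shared set of transcription factors of the AP2/ERF, WRKY, zinc finger and MYB families within a short time.

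The 6 unheated libraries held 45139365 to 51414141 estimated counts in the mutant and 48365909 to 53789648 in the wild type. How many sequenced fragments stand behind a count is not known, since low counts pile up at multiples of 4 (47.3% of them). Genes of floral organ identity were expressed in both genotypes, with SEP1, a MADS-box gene of flower development, at 95.4 ± 7.27 FPKM in the mutant and 82.3 ± 3.70 FPKM in the wild type (SD, n = 3 each), where FPKM is a fragment count scaled to transcript length and library depth. Mutant replicate 2 stood apart: on the first principal component of the 6 libraries, which held 35.7% of the variance, it lay at -105 and the others between -3.28 and 42.9. The mean log2 level of 26 photosynthesis genes, centred over the 6 libraries, was -0.93 in that library, against -0.06 to 0.54 in the other 5. Summed over those genes, FPKM ran from 5725 to 12017 in the mutant libraries and from 10006 to 17496 in the wild-type libraries, and all 26 exceeded 1 FPKM in every library. Maturing pollen markers were highest in wild-type replicate 3 (a centred level of 0.73, against -0.25 to -0.04 in the other 5 libraries). The part of these library differences in the results was not tested beyond the fits without those libraries that are given beside them.

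**Figure D1:**
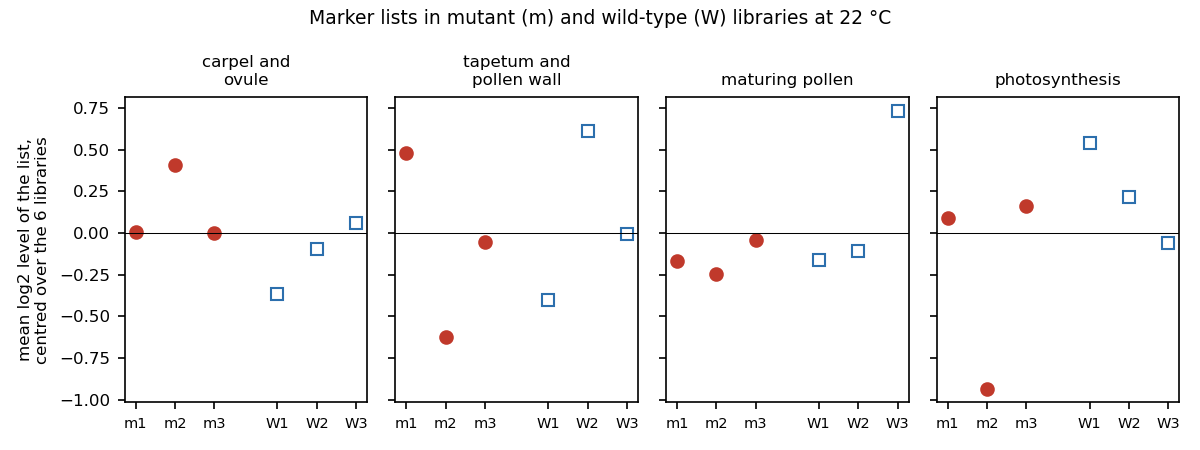
Mean log2 level of 4 marker lists in each unheated library, centred over the 6 libraries, with filled circles for mutant replicates 1 to 3 (m1 to m3) and open squares for wild-type replicates 1 to 3 (W1 to W3). Mutant replicate 2 is lowest for the photosynthesis genes (-0.93) and wild-type replicate 3 is highest for maturing pollen genes (0.73), while the groups overlap in all 4 lists.

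XBAT31 itself was the first gene examined, since it is the mutated one. In the mutant it stood at 54.3, 55.7 and 45.3 FPKM, against 95.3, 96.8 and 96.6 FPKM in the wild type. All mutant libraries were below all wild-type libraries, and the mutant mean was 53.8% of the wild-type mean. The log2 fold change was -0.93 ± 0.08 (SE), with an adjusted p of 8.61e-04 by edgeR's quasi-likelihood test with Benjamini-Hochberg adjustment, the test used for all adjusted p-values below. An exact two-sided permutation test of the 6 values gave p = 0.1, the smallest that 3 against 3 samples allow. Reads of XBAT31 were thus fewer but still present in the mutant. The gene lies on chromosome 2 at positions 12378337 to 12380742 of TAIR10, on the plus strand. Because the labels do not name the allele, the part of the transcript these reads come from was not examined here. Of its 4 tested relatives in the XBAT family, 0 passed by edgeR and 1, XBAT34, by DESeq2 (adjusted p = 0.00487) and at an unadjusted p below 0.05. XBAT34 stood at 1.72, 3.53 and 3.46 FPKM in the mutant and 0.688, 0.508 and 0.669 FPKM in the wild type, with no overlap (2.18 ± 0.55, adjusted p = 0.352 by edgeR). In whole flowers, fewer cells of a type and less RNA per cell cannot be told apart, and this holds for every difference below.

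Across the genome the genotypes differed in few genes at 22 °C. Of the genes tested, 45 passed at an adjusted p below 0.05 (0.191%), of which 38 were higher in the mutant (0.161%) and 7 were lower (0.0297%). In all 45 the 3 mutant libraries lay entirely above or entirely below the 3 wild-type libraries, as did 2777 of the genes tested (11.8%). At an unadjusted p below 0.05 there were 1659 genes (7.03%), and DESeq2 called 245 (1.04%), all 45 among them. The count of 45 was 25, 26 and 25 without wild-type replicates 1, 2 and 3, 27 without mutant replicate 1, 42 without mutant replicate 2 and 41 without mutant replicate 3. Without mutant replicate 2 and the 2 heated libraries that also stood apart, 59 genes passed, 42 of the 45 among them. A core of 21 genes passed in all 19 alternative fits, which left out libraries or changed the filter, the scaling or the test: ERF105, ERF104, ERF6, ERF13, WRKY33, WRKY70, SZF1, CZF1, TCH4, ACS6, BCS1, TEM1, AT4G27280, AT1G07135, AT4G29780, AT5G35935.1, AT3G56880, AT5G52070, XBAT31, CDKB1;2 and AT2G41640. Each of the others missed the threshold in at least 1 fit that left out 1 unheated library.

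Genes that rose in the mutant were mostly weakly expressed in the wild type. The median of the 38 was 13.5 FPKM in the mutant and 3.09 FPKM in the wild type, and 31 of them were under 10 FPKM in the wild type, while the wild-type median of all genes tested was 10.7 FPKM. Their log2 fold changes ran from 0.71 to 5.54, 33 changed at least 2-fold and 23 at least 4-fold. Within the mutant, replicate 3 was the highest library for 23 of the 38 and replicate 2 the lowest for 23. The plot of levels by library shows each gene.

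**Figure D2:**
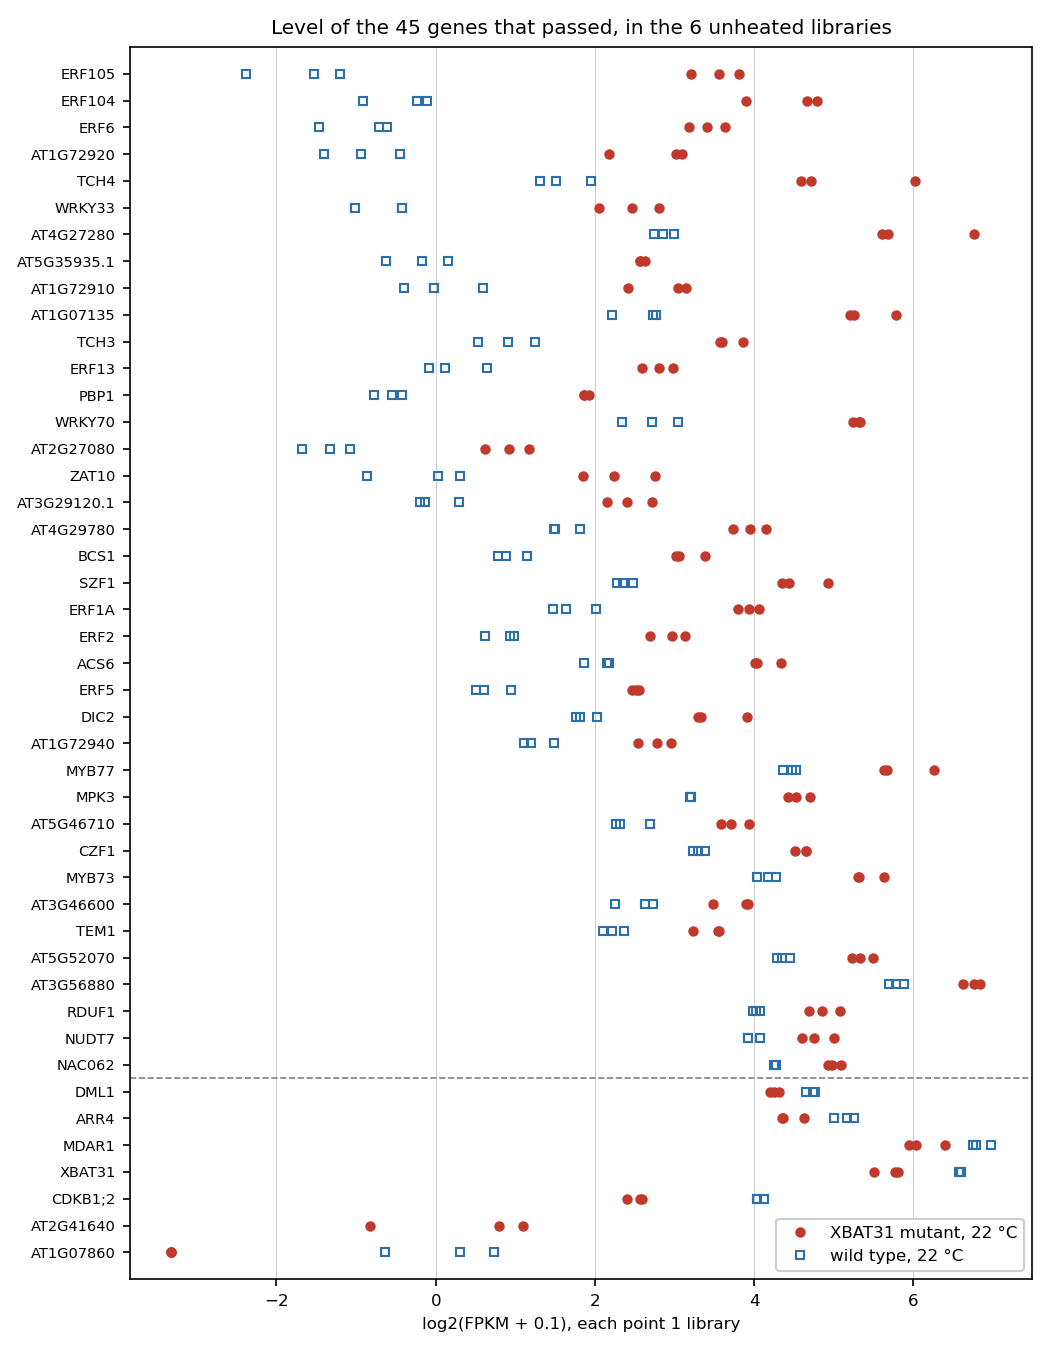
Level of each of the 45 genes that passed, as log2(FPKM + 0.1), with each filled circle a mutant library and each open square a wild-type library at 22 °C. The 38 genes above the dashed line are higher in the mutant and the 7 below it lower, and the groups overlap in none of them.

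Factors of the AP2/ERF family bind DNA through an AP2 domain and relay ethylene and stress signals. A list of stress-linked members had the highest median of the 27 lists, which were chosen with earlier results of these data known. Of its 17 tested members, 7 rose (against 0.161% of all genes tested) and 0 fell (against 0.0297%). The list's median log2 fold change was 2.1, against -0.01 for all genes tested. The 7 were ERF105, ERF104, ERF6, ERF13, ERF1A, ERF2 and ERF5, all of group IX of the family. The 6 lists with a member that rose were picked for that rise, so shares among their members are not a test. Of their 78 tested members, 38 had an unadjusted p below 0.05 (48.7%) and DESeq2 called 27 (34.6%). In both counts 0 were lower. In either direction, 7.03% of all genes tested had such a p, and DESeq2 called 1.04%. Leaving out wild-type replicate 2 or wild-type replicate 3 brought the count of 7 AP2/ERF genes to 4. Leaving out mutant replicate 2 moved the median of their list to 2.24.

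ERF105, a factor linked to cold and freezing tolerance, stood at 11.7, 9.12 and 13.9 FPKM in the mutant, against 0.0914, 0.246 and 0.335 FPKM in the wild type. It was barely detected in any wild-type library, and its log2 fold change of 5.54 ± 0.57 (SE, adjusted p = 0.00163) was the largest among the 38. ERF104, which the kinase MPK6 phosphorylates in the response to bacterial flagellin, had 25.1, 14.8 and 27.6 FPKM in the mutant and 0.431, 0.827 and 0.752 FPKM in the wild type (log2 fold change 5.01 ± 0.44, adjusted p = 8.15e-04). Its lowest mutant library, replicate 2, was still far above its highest wild-type library. ERF6, a substrate of the kinases MPK3 and MPK6, had 10.5, 8.98 and 12.3 FPKM in the mutant and 0.510, 0.553 and 0.263 FPKM in the wild type (4.53 ± 0.57, adjusted p = 0.00603). These 3 genes were at 8.98 FPKM or more in every mutant library and under 1 FPKM in every wild-type library.

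The other 4 factors had measurable wild-type levels. ERF13 stood at 6.90, 5.93 and 7.80 FPKM in the mutant, against 0.981, 0.841 and 1.46 FPKM in the wild type, a log2 fold change of 2.6 ± 0.28 with an adjusted p of 0.00197. ERF1A, an activator that binds the GCC box of defence genes, stood at 15.2, 13.8 and 16.5 FPKM in the mutant and 3.94, 3.01 and 2.69 FPKM in the wild type (2.21 ± 0.36, adjusted p = 0.0346). ERF2, a close relative of ERF1A, stood at 8.67, 6.34 and 7.74 FPKM in the mutant and 1.82, 1.44 and 1.87 FPKM in the wild type (2.1 ± 0.30, adjusted p = 0.0158). For ERF5, a factor of the chitin response, the log2 fold change was 1.84 ± 0.24 (adjusted p = 0.00846). No libraries overlapped in any of the 4. ERF1A did not pass in any fit that left out 1 unheated library (adjusted p of 0.0624 to 0.223) and ERF2 passed in 1 such fit (0.0225 to 0.117), while ERF13 passed in all 6. The 10 tested members that did not pass ranged in log2 fold change from -0.08 for CBF3, a cold-response factor, to 4.08 for ERF11, a repressor that was at or under 0.141 FPKM in every wild-type library.

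WRKY factors bind the W-box in promoters of defence genes. Of 15 tested members of the list, 2 rose, 0 fell, and the median log2 fold change was 0.53. WRKY70, which sits between the salicylate and jasmonate branches of defence, had 40.3, 37.8 and 39.9 FPKM in the mutant, against 8.12, 6.49 and 4.98 FPKM in the wild type (log2 fold change 2.56 ± 0.21, adjusted p = 6.10e-04). The mutant libraries differed little among themselves, and the lowest was over 4 times the highest wild-type library. WRKY33, needed for resistance to necrotrophic fungi and for camalexin synthesis, stood at 4.05, 6.88 and 5.44 FPKM in the mutant and 0.394, 0.397 and 0.644 FPKM in the wild type (3.45 ± 0.39, adjusted p = 0.00291). WRKY40 and WRKY46, both defence-linked, did not pass: WRKY40 stood at 5.63, 3.35 and 3.58 FPKM in the mutant and 0.208, 0.923 and 0.120 FPKM in the wild type, with an adjusted p of 0.119. Their groups did not overlap, and WRKY40 passed without wild-type replicate 2, its highest wild-type library (adjusted p = 0.0210). DESeq2 called 5 members of the list (33.3%, against 1.04% of all genes tested).

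Zinc finger and MYB factors of stress gave 5 genes that rose and 0 that fell among 17 tested, with a median log2 fold change of 1.24 (1.11 with MYB15, which was at 0 in every wild-type library, placed at its bound). SZF1 and CZF1 are a pair of CCCH zinc finger genes of the salt response. SZF1 stood at 21.6, 20.3 and 30.3 FPKM in the mutant, against 5.00, 5.50 and 4.76 FPKM in the wild type (2.21 ± 0.21, adjusted p = 9.61e-04). CZF1 stood at 22.7, 24.98 and 25.1 FPKM in the mutant and 10.3, 9.73 and 9.27 FPKM in the wild type (1.28 ± 0.16, adjusted p = 0.00564). The groups overlapped in neither gene. ZAT10, a C2H2 repressor of several stress responses, had 4.63, 3.497 and 6.64 FPKM in the mutant and 1.14, 0.918 and 0.448 FPKM in the wild type (2.53 ± 0.42, adjusted p = 0.0407). MYB77, a factor of auxin responses in roots, averaged 58.9 ± 15.1 FPKM in the mutant and 21.8 ± 1.21 FPKM in the wild type (SD, n = 3 each), and MYB73, its relative, averaged 43.0 ± 5.72 FPKM in the mutant and 17.84 ± 1.48 FPKM in the wild type. Both passed, with log2 fold changes of 1.40 and 1.24 and adjusted p-values of 0.00898 and 0.0169. CAF1A, a subunit of the complex that removes poly(A) tails, narrowly did not pass (2.49 ± 0.43, adjusted p = 0.0526). The count of 5 was 2 without wild-type replicate 1 and 2 without wild-type replicate 2. It was 3 without each of wild-type replicate 3, mutant replicate 1 and mutant replicate 3.

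Touch and calcium genes followed. TCH genes were named for their response to touch: TCH4 codes for a xyloglucan endotransglucosylase/hydrolase that remodels cell walls and TCH3 for a calmodulin-like protein. TCH4 had 26.1, 24.0 and 64.7 FPKM in the mutant, against 2.38, 2.74 and 3.78 FPKM in the wild type (log2 fold change 3.65 ± 0.40, adjusted p = 0.00230). Mutant replicate 3 was well above the other 2 mutant libraries. TCH3 had 14.5, 11.8 and 12.0 FPKM in the mutant and 1.78, 2.28 and 1.34 FPKM in the wild type (2.78 ± 0.42, adjusted p = 0.0215), with no overlap. It passed in 1 of the 6 fits that left out 1 unheated library (adjusted p of 0.0479 to 0.152). TCH2, the third of this set, did not pass: it stood at 56.7, 62.9 and 80.7 FPKM in the mutant, against 40.6, 35.5 and 37.9 FPKM in the wild type (0.78 ± 0.15, adjusted p = 0.119). Of the 10 tested touch and calmodulin-like genes 2 rose, 0 fell, and the median was 0.51. The count was 1 when any 1 library other than mutant replicate 2 was left out. Outside the list, the EF-hand gene AT4G27280 stood at 51.1, 48.6 and 108 FPKM in the mutant and 6.58, 7.16 and 7.89 FPKM in the wild type (3.23 ± 0.32, adjusted p = 0.00115). Its highest library was again mutant replicate 3. PBP1 (AT5G54490), a calcium-binding partner of the kinase PINOID, also passed (2.59 ± 0.42, adjusted p = 0.0380), though in 0 of the 6 fits that left out 1 unheated library (0.0926 to 0.246).

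**Figure D3:**
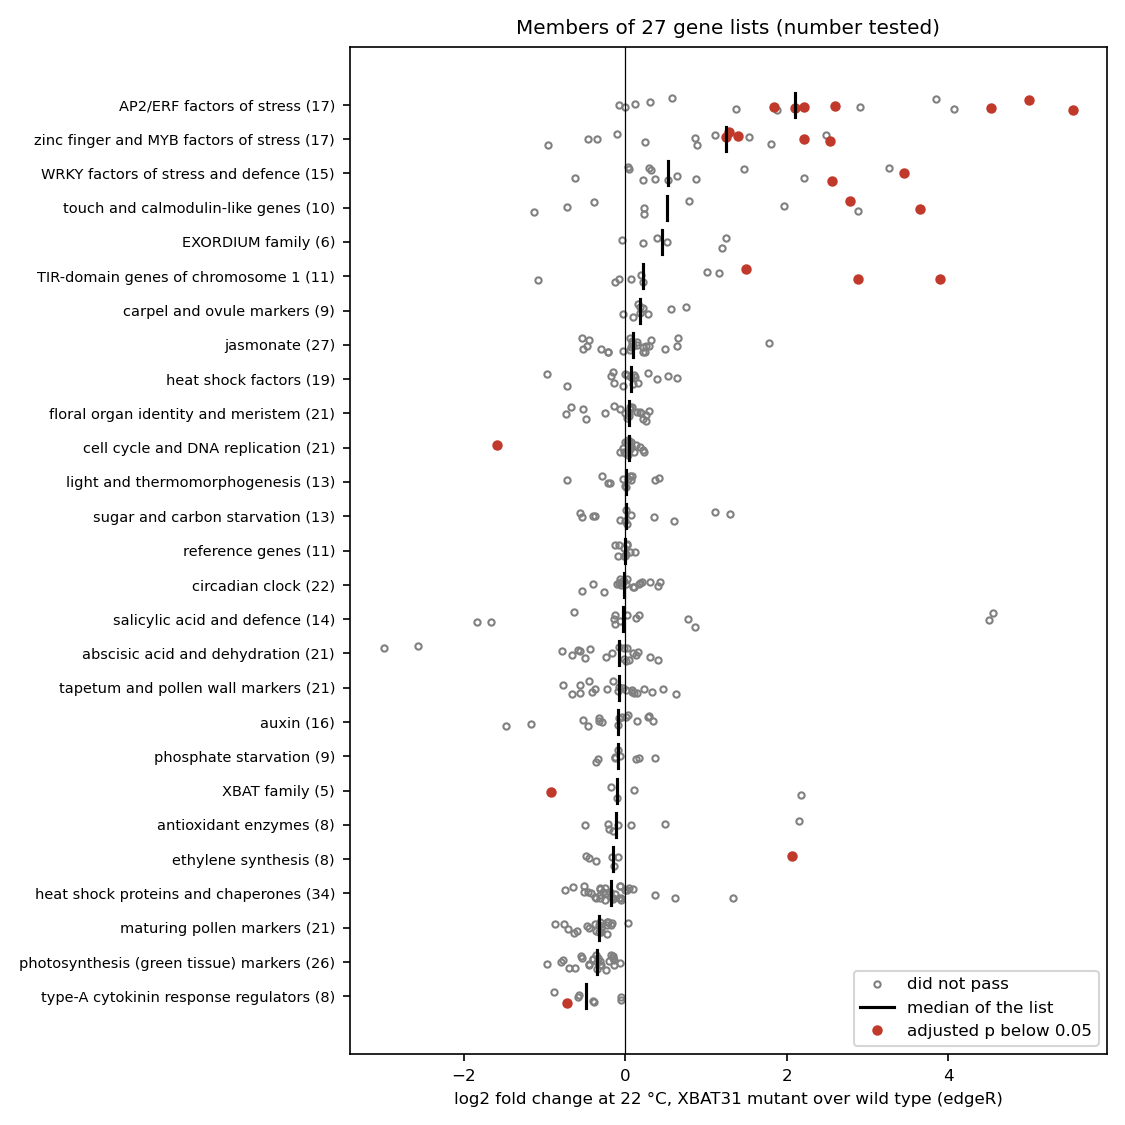
Log2 fold change at 22 °C, mutant over wild type, of the tested members of 27 gene lists, with filled red circles for members that passed, open grey circles for members that did not and black bars for list medians. The AP2/ERF list has the highest median (2.1) and the type-A response regulators the lowest (-0.48), and 6 members that were at 0 counts in all libraries of a group are left out of the drawing but not of the medians.

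Signalling enzymes were among the genes that rose. ACS6, an ACC synthase that makes the direct precursor of ethylene and is stabilised by MPK6, had 16.3, 16.1 and 20.04 FPKM in the mutant, against 3.53, 4.41 and 4.34 FPKM in the wild type (2.06 ± 0.19, adjusted p = 9.61e-04). It passed in every alternative. It was 1 of 8 tested genes of ethylene synthesis, a list with a median of -0.15, and the ACC oxidase genes ACO1 and ACO4, of the last step, had log2 fold changes of -0.45 and -0.16 with adjusted p-values of 0.815 and 0.891. MPK3, a mitogen-activated protein kinase of immune and stress signalling, averaged 23.4 ± 2.36 FPKM in the mutant and 9.07 ± 0.0690 FPKM in the wild type (SD, n = 3 each; log2 fold change 1.33, adjusted p = 0.00912). NUDT7, a nucleotide pyrophosphohydrolase that restrains defence, and RDUF1, another RING ubiquitin ligase, rose by less (0.79 and 0.83, with adjusted p-values of 0.0498 and 0.0169). Mitochondrial proteins were coded by BCS1, an AAA-type ATPase gene at 8.86 ± 1.27 FPKM in the mutant and 1.82 ± 0.258 FPKM in the wild type (2.25, adjusted p = 0.00308), and DIC2, a dicarboxylate carrier gene at 11.5 ± 2.97 FPKM in the mutant and 3.55 ± 0.365 FPKM in the wild type (1.67, adjusted p = 0.00982).

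A cluster of genes with a TIR domain, the domain that opens many plant immune receptors, lies on chromosome 1. Of 11 tested members, 3 rose, 0 fell, and the median log2 fold change was 0.22. AT1G72920 stood at 8.44, 4.44 and 8.01 FPKM in the mutant, against 0.276, 0.634 and 0.420 FPKM in the wild type (3.90 ± 0.66, adjusted p = 0.0498). AT1G72910 averaged 7.39 ± 1.901 FPKM in the mutant and 0.984 ± 0.384 FPKM in the wild type, and AT1G72940 averaged 6.71 ± 0.979 FPKM in the mutant and 2.32 ± 0.341 FPKM in the wild type (SD, n = 3 each). Their log2 fold changes were 2.88 and 1.5, with adjusted p-values of 0.0171 and 0.0169. AT1G72930, which lies between them, stood at 19.2, 7.69 and 17.0 FPKM in the mutant and 10.8, 7.05 and 3.56 FPKM in the wild type, so that the groups overlapped (1.02, adjusted p = 0.703). The count of 3 was 1 without wild-type replicate 1. It was 0 without each of wild-type replicates 2 and 3 and mutant replicates 1 and 3. These TIR genes are close relatives, and reads shared between them may have been split by the counting.

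The remaining genes that rose had no list. Smallest of all p-values in this direction was that of AT5G35935.1, an entry without a description in the table, at 5.80, 6.08 and 5.80 FPKM in the mutant and 1.01, 0.785 and 0.547 FPKM in the wild type (2.89 ± 0.23, adjusted p = 6.10e-04). AT1G07135, a glycine-rich protein gene, stood at 38.1, 36.6 and 54.7 FPKM in the mutant and 6.53, 4.54 and 6.70 FPKM in the wild type (2.83 ± 0.27, adjusted p = 9.61e-04). AT4G29780, also without a description, averaged 15.4 ± 2.22 FPKM in the mutant and 2.94 ± 0.407 FPKM in the wild type (SD, n = 3 each; 2.36, adjusted p = 9.61e-04). In all 3 the groups were far apart compared with their spread. AT3G56880, a VQ motif gene, was the most abundant of the 38, at 98.5, 109 and 114 FPKM in the mutant and 51.7, 55.1 and 58.7 FPKM in the wild type, and nearly doubled (0.92 ± 0.10, adjusted p = 0.00197). TEM1, a repressor of flowering, averaged 10.8 ± 1.36 FPKM in the mutant and 4.59 ± 0.416 FPKM in the wild type (1.21, adjusted p = 0.00249). The others were AT2G27080 (2.55), AT3G29120.1 (2.51), the PLATZ gene AT5G46710 (1.3), the GRAS gene AT3G46600 (1.22), the Agenet-domain gene AT5G52070 (0.96) and NAC062, a membrane-bound NAC factor (0.71), with log2 fold changes in parentheses and adjusted p-values of 0.00308 to 0.0171.

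The deposited annotation terms gave many of the 38 genes a shared label. Of 1010 terms with 15 to 300 tested genes, "response to chitin" had the highest share of genes that rose, 17 of 123 (13.8%). Of all genes tested, 0.161% rose. Next were "ethylene-activated signaling pathway" with 5 of 40 (12.5%) and "phloem or xylem histogenesis" with 5 of 54 (9.26%). The last 5 were ACS6, ERF6, ERF1A, ERF2 and ERF104, which also made up the 5 of 88 under "cell division" (5.68%). "Cellular response to hypoxia" had 17 of 213 (7.98%), among them TCH3, TCH4, PBP1 (AT5G54490), DIC2, WRKY70 and all 3 TIR genes. Most genes of these terms did not pass. Median log2 fold changes were 0.16 for chitin, 0.06 for ethylene, 0.07 for phloem or xylem, 0.18 for hypoxia and 0.05 for cell division. Shares were counted without a test, and the terms share genes.

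Gene structure and position set the 38 genes beside the rest of the genome. By RefSeq models of TAIR10.1, 21 of the 36 that had a model were made of a single exon (58.3%), against 18.6% of all genes tested, and 0 of the 7 lower genes were. The median exon number was 1 for the higher genes, 5 for the lower genes and 4 for all genes tested. Some neighbours rose together: AT1G72910, AT1G72920 and AT1G72940 lie within 5093 bases of each other. ERF6 and ERF1A lie 5457 bases apart on chromosome 4 and point away from each other with no tested gene between them, and ERF2 and ERF5 lie 7115 bases apart on chromosome 5. Small overlaps of 14 to 69 bases with a gene on the opposite strand, none of which passed, were found for AT2G27080, WRKY33, MYB73, AT5G46710 and CDKB1;2. The share of tested genes that passed ran from 0.130% on chromosome 1 to 0.248% on chromosome 2. Within 1 Mb of XBAT31, 410 other genes were tested and 1 passed, AT2G27080, a gene of the hydroxyproline-rich LEA family at 2.15, 1.43 and 1.79 FPKM in the mutant and 0.299, 0.376 and 0.211 FPKM in the wild type.

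Promoters of the higher genes were read for the short elements named below. These genes share a direction because they were picked for it, and whether they varied together was not tested. The window was the 250 bases before the RefSeq gene start in TAIR10.1, found for 36 of the 38 higher genes and 22925 of the genes tested. The W-box (TTGACC or TTGACT, on either strand), the element bound by WRKY factors, was found in 19 of the 36 (52.8%), in 3 of the 7 lower genes (42.9%) and in 27.9% of all promoters. The GCC box (GCCGCC), bound by ERF factors, was in 3 of the 36 (8.33%) and 1.87% of all, and the CAMTA box (ACGCGT or CCGCGT), bound by calmodulin-binding activators, in 4 of the 36 (11.1%) and 3.52% of all. A heat shock element of alternating GAA and TTC units was in ERF1A and ERF2, 2 of the 36 (5.56%), and in 0.410% of all. The G-box (CACGTG) was in 11.1% and 7.08%, and the evening element (AAAATATCT) in 5.56% and 2.48%, of the higher genes and of all promoters; XBAT31 holds an evening element too. In the windows of ERF104 and ERF6, which were among the genes with the largest rise, none of these letters were found.

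Of the higher genes, 4 had 3 matches of the W-box, GCC box, CAMTA box or heat shock element and 5 had 2. Printed are the 4 and, of the 5, AT4G29780, which had the largest log2 fold change among them, to show where these letters lie, 5′ to 3′ and ending at the base before the RefSeq gene start, which can differ from the start in the deposited table, with each match in capitals. They were chosen after the matches were counted. All 5 are on the plus strand of TAIR10.1: WRKY33 at chr2:16107985-16108234, AT2G27080 at chr2:11563683-11563932, SZF1 at chr3:20775970-20776219, DIC2 at chr4:12686209-12686458 and AT4G29780 at chr4:14579313-14579562.
WRKY33: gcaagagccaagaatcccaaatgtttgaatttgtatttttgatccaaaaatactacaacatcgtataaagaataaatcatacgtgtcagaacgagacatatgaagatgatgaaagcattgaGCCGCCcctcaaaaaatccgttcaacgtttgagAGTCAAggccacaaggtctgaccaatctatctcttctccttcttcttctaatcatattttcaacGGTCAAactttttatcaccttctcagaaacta
AT2G27080: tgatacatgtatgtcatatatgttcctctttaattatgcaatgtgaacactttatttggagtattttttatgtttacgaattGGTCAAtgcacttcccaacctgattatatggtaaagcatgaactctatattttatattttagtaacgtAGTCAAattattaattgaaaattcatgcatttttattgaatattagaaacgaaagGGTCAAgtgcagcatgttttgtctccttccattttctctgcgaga
SZF1: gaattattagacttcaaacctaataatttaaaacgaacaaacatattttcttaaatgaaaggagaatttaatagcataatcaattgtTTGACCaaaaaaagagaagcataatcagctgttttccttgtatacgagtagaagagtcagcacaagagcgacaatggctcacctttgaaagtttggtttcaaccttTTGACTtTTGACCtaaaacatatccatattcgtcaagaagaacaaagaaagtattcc
DIC2: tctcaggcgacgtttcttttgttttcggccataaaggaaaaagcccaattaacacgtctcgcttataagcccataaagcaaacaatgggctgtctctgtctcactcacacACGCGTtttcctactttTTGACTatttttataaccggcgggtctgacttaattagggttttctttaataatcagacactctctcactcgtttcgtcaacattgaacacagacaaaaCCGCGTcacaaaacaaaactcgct
AT4G29780: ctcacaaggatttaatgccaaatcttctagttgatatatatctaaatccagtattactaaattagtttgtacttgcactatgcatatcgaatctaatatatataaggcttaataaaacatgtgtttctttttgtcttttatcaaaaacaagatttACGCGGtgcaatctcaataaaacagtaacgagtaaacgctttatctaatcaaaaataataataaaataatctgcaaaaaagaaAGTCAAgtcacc
WRKY33, with 2 W-boxes and 1 GCC box, held elements of both kinds. SZF1 held 3 W-boxes, of which 2 lie almost side by side near the gene start, and AT2G27080 held 3 spread over the window. DIC2 held 2 CAMTA boxes and 1 W-box, and AT4G29780 held 1 of each. A match of letters is not a bound site, and 2 or more such matches were found in 9 of the 36 promoters (25%) and in 7.52% of all.

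Genes that fell were a mixed set of 7. AT2G41640, which codes for a family 61 glycosyltransferase, had 1.64, 0.466 and 2.04 FPKM in the mutant, against 25.8, 25.9 and 28.4 FPKM in the wild type. The mutant mean was 5.18% of the wild-type mean, and the log2 fold change was -4.29 ± 0.41 (SE, adjusted p = 9.61e-04). The gene lies on chromosome 2 at 17360486 to 17363788. CDKB1;2, a B-type cyclin-dependent kinase of cell division, stood at 5.203, 5.81 and 5.91 FPKM in the mutant and 16.3, 16.3 and 17.3 FPKM in the wild type (-1.59 ± 0.12, adjusted p = 6.10e-04). Replicates lay close together in both groups. Its paralogue CDKB1;1 stood at 28.4, 34.6 and 32.4 FPKM in the mutant and 27.1, 26.0 and 29.0 FPKM in the wild type (0.18, adjusted p = 0.751). Of 21 cell cycle and DNA replication genes, CDKB1;2 was the 1 that passed, and the other members ranged from -0.07 (TSO2) to 0.23 (KNOLLE). CDKB1;2 and CDKB1;1 are near relatives, and the table does not say how reads shared between them were counted.

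ARR4, a type-A response regulator that damps cytokinin signalling, stood at 20.3, 20.4 and 24.6 FPKM in the mutant, against 35.9, 38.1 and 32.1 FPKM in the wild type (-0.73 ± 0.10, adjusted p = 0.0125). All 8 tested genes of its class had a negative log2 fold change, with a median of -0.48, and ARR4 was the 1 that passed. ARR6 stood at 6.23, 5.36 and 4.13 FPKM in the mutant and 11.1, 8.72 and 8.69 FPKM in the wild type (-0.89, adjusted p = 0.119), and ARR7 at 13.7, 18.9 and 19.2 FPKM in the mutant and 24.2, 27.9 and 23.3 FPKM in the wild type (-0.57, adjusted p = 0.266). Neither overlapped between groups. ARR5 and ARR9 were near 0 (-0.05 each). DESeq2 called 3 of the class (37.5%, against 1.04% of all genes tested). Leaving out wild-type replicate 1, wild-type replicate 2 or mutant replicate 1 in turn ended the call of ARR4 (adjusted p of up to 0.0801), as did a fit of the unheated libraries alone.

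MDAR1, a monodehydroascorbate reductase that regenerates ascorbate, stood at 65.1, 83.9 and 61.4 FPKM in the mutant and 126, 110 and 107 FPKM in the wild type (-0.74 ± 0.11, adjusted p = 0.0171). DML1, also known as ROS1, a DNA glycosylase that removes cytosine methylation, stood at 18.9, 18.23 and 19.7 FPKM in the mutant and 26.51, 27.1 and 24.9 FPKM in the wild type (-0.50 ± 0.07, adjusted p = 0.0169). Both had no overlap, and each passed in 1 of the 6 fits that left out 1 unheated library. AT1G07860 was at 0 counts in all 3 mutant libraries, against 34, 28 and 13 counts in the wild type (adjusted p = 0.0421), at least 1.97-fold lower in the mutant with a floor of 12 counts per library. It passed in 0 of the fits that left out 1 unheated library (adjusted p of 0.0748 to 0.152). It lies wholly within AT1G07870 on the same strand, so that its reads cannot be told from those of its host, which did not pass (0.08, adjusted p = 0.902).

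Genes of heat protection belong to the known field of XBAT31. Of 19 heat shock factors and 34 heat shock proteins and chaperones, 0 passed by edgeR at 22 °C, 2 of each list by DESeq2 (10.5% and 5.88%, against 1.04% of all genes tested) and 0 by limma on log2(FPKM + 1). At an unadjusted p below 0.05 there were 4 factors (21.1%), 3 of them higher, and 6 chaperone genes (17.65%), all lower, against 7.03% of all genes tested. The medians were 0.07 (0.02 with members at 0 placed at their bounds) and -0.18. HSFB2A stood at 7.53, 5.86 and 6.63 FPKM in the mutant, against 6.45, 5.79 and 6.09 FPKM in the wild type (0.10 ± 0.17, adjusted p = 0.906). HSFB2B stood at 7.36, 8.29 and 8.70 FPKM in the mutant and 9.24, 10.2 and 7.27 FPKM in the wild type (-0.16 ± 0.12, adjusted p = 0.807). Both overlapped between groups. HSFA2, a strongly heat-induced class A factor, stood at 2.72, 4.36 and 2.69 FPKM in the mutant and 6.34, 6.35 and 6.12 FPKM in the wild type, with no overlap (-0.98 ± 0.22, adjusted p = 0.220). It passed by DESeq2 (adjusted p = 6.63e-04) and without the 3 libraries that stood apart (adjusted p = 0.0324). HSP101, the disaggregase of acquired thermotolerance, stood at 6.71, 7.83 and 6.004 FPKM in the mutant and 9.89, 9.75 and 9.10 FPKM in the wild type (-0.52, adjusted p = 0.296). In all, 27 of the 34 chaperone genes had a negative log2 fold change. ELF3 stood at 27.6, 28.7 and 25.3 FPKM in the mutant and 29.3, 27.7 and 26.3 FPKM in the wild type, overlapping throughout (-0.06 ± 0.08, adjusted p = 0.879).

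**Figure D4:**
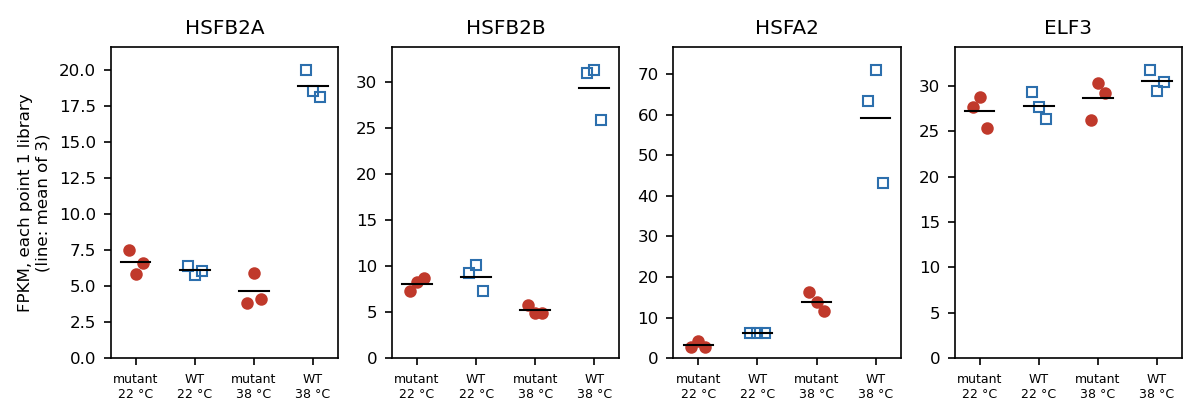
FPKM of HSFB2A, HSFB2B, HSFA2 and ELF3 in each library of the 4 groups, with filled circles for the mutant, open squares for the wild type (WT) and lines for means of 3 libraries. At 22 °C the genotypes overlap for HSFB2A, HSFB2B and ELF3, and at 38 °C all mutant libraries are below all wild-type libraries for the 3 heat shock factors.

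In 18 of the 27 lists, the heat shock lists and those of flower parts, the clock and several hormones among them, 0 of 311 tested members passed by edgeR, 14 by DESeq2 (4.50%, against 1.04% of all genes tested) and 1 by limma on log2(FPKM + 1). At an unadjusted p below 0.05 there were 40 (12.9%, against 7.03% of all genes tested), of which 25 were higher in the mutant and 15 lower. The list with most DESeq2 calls was jasmonate, with 4. Floral organ identity and meristem genes had a median of 0.05 over 21 members, and the largest size among them was that of AP1, an identity gene of sepals and petals, at 28.8 ± 10.7 FPKM in the mutant and 47.2 ± 11.2 FPKM in the wild type (SD, n = 3 each; -0.73, adjusted p = 0.670). Jasmonate genes had a median of 0.09 over 27 members, and 0.39 without mutant replicate 2. Their centred level was -0.64 in that library, against 0.43 in mutant replicate 1 and 0.46 in mutant replicate 3. Auxin genes had a median of -0.09 over 16 members and abscisic acid genes -0.08 over 21. Salicylic acid and defence genes had a median of -0.02 over 14 members. At an unadjusted p below 0.05, 4 of the 14 were higher and 0 lower (28.6%, against 7.03% of all genes tested). DESeq2 called 1 of the 14, and limma on log2(FPKM + 1) called 1. The list also held NPR1, the salicylate receptor (-0.13, adjusted p = 0.855), and EDS1, a hub of TIR receptor signalling (0.16, adjusted p = 0.764). The 26 photosynthesis genes were all negative, with a median of -0.35, and -0.15 without mutant replicate 2, the library in which they were lowest. Maturing pollen genes had a median of -0.32, with 20 of 21 negative, beside the high level of these genes in wild-type replicate 3. Tapetum genes had a median of -0.08 and carpel and ovule genes 0.19.

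The heated flowers, from other libraries, gave a second reading of the 45 genes. There 2269 of the genes tested passed between genotypes (9.62%), 1028 higher in the mutant (4.36%) and 1241 lower (5.26%). Of the 38 genes that were higher in the mutant at 22 °C, 37 were higher and passed at 38 °C. In all 38 the lowest heated mutant library was above the highest heated wild-type library by FPKM. Overlap at 22 °C was read from scaled log2 counts instead, and the share of all genes tested without overlap at 38 °C was not counted. The median log2 fold change of the 38 was 2.24 at 38 °C and 2.23 at 22 °C. For 0 of the 38 did the difference between the 2 effects pass at an adjusted p below 0.05, while 374 of the genes tested did (1.59%). With so low a share, 0 of 38 does not show that the effects were equal. At an unadjusted p below 0.05 there were 10 of the 38, and the share of all genes tested at that threshold was not counted. ERF104, for example, stood at 12.3, 33.4 and 30.8 FPKM in heated mutant flowers and 0.779, 0.577 and 0.767 FPKM in heated wild-type flowers (5.12 ± 0.43, adjusted p = 1.17e-04). The 1 gene that did not pass was AT5G46710 (0.40, adjusted p = 0.189).

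The 7 lower genes behaved less uniformly. XBAT31 (-1.15), AT2G41640 (-3.08) and DML1 (-0.52) were again lower in the heated mutant and passed there. CDKB1;2 and ARR4 passed in the other direction. In heated flowers CDKB1;2 stood at 18.8, 15.6 and 15.5 FPKM in the mutant, against 9.19, 11.6 and 8.73 FPKM in the wild type (0.72 ± 0.12, adjusted p = 0.00403). ARR4 stood at 29.4, 31.2 and 31.2 FPKM in the mutant and 18.5, 22.7 and 19.99 FPKM in the wild type (0.55 ± 0.10, adjusted p = 0.00656). The groups of both genes had no overlap at either temperature, and both turned round. The difference between the effects, 38 °C minus 22 °C, was 2.31 ± 0.17 for CDKB1;2 (adjusted p = 3.12e-04) and 1.27 ± 0.14 for ARR4 (adjusted p = 0.00433). MDAR1 was level between genotypes at 38 °C (116 ± 5.59 FPKM in the mutant and 116 ± 5.21 FPKM in the wild type, SD, n = 3 each), and its difference of effects passed as well (0.70, adjusted p = 0.0496). AT1G07860 did not pass at 38 °C.

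**Figure D5:**
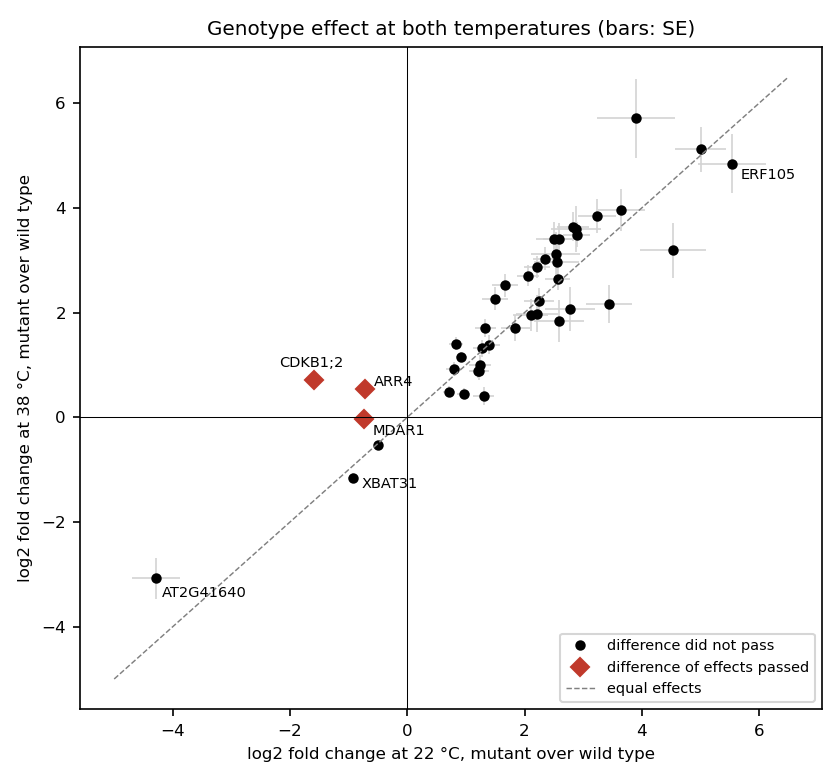
Log2 fold change of mutant over wild type at 22 °C (horizontal) and at 38 °C (vertical) for the genes that passed at 22 °C, apart from AT1G07860, with bars for standard errors and red diamonds where the difference of effects passed. The 38 higher genes lie in the upper right on both sides of the line of equal effects, 22 of them with the larger effect at 38 °C. Some lie well off that line, such as AT1G72920 (3.90 and 5.71) and WRKY33 (3.45 and 2.17). CDKB1;2 (-1.59 and 0.72) and ARR4 (-0.73 and 0.55) lie at the upper left.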

How the data were processed

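Polyadenylated RNA of 12 flower libraries went into paired-end, dUTP-marked libraries for an Illumina NovaSeq, per the labels' protocols. Tools named in the submitters' processing notes are cutadapt (1.9), StringTie (1.3.4d) and HISAT2 (2.0.4), with TAIR10 as genome build. No source used here gives the strand setting of the counting, and overlapping or antisense genes may share reads. The deposited expected counts are estimated counts per gene that the authors did not scale to depth, by a step no label states. The deposited FPKM values were scaled by the authors to transcript length and depth. Counts served for tests and FPKM for levels.

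Rounded counts were fitted with edgeR 4.0.16 under R 4.3.3 (quasi-likelihood, a mean for each of 4 groups, 8 residual degrees of freedom, TMM scaling). The filter was edgeR's filterByExpr, minimum count 10. All tests were two-sided, and p-values were adjusted by Benjamini-Hochberg over all genes tested, with a threshold of 0.05. Standard errors (SE) of log2 fold changes come from that fit, and SD is over libraries. Counts may not be independent molecules, so no counting interval was drawn, and floors cover counting error only. Where a group was at 0, the floor was 12 counts per library, for 3 fragments at an assumed 4 counts each.

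Genes, the 27 lists (441 members, of which 439 are in the table) and the rule for named genes were chosen with earlier results of these data known. The rule took XBAT31, HSFB2A, HSFB2B, HSFA2 and ELF3, the 15 genes with a symbol that rose or fell most, the 10 of smallest p in each direction, up to 4 members of smallest p of each list, all members of lists of 11 or fewer, and genes that passed within 1 Mb of XBAT31. Other genes that passed, and members given as the ends of a range, were named after their values were seen. ERF98 and ACS9 were not analysed here. Promoters, exons and symbols come from RefSeq's TAIR10.1, and gene positions are those of the table. Gene ends often differ between them: on chromosome 1, 3254 of 6857 genes had at least 1 end equal and 1192 had both. Alternatives used DESeq2 1.42.0, limma 3.58.1 on log2(FPKM + 1) or log2(FPKM + 0.1), other scalings and filters, a replicate block, the unheated libraries alone, a robust fit, counts divided by 4 and each unheated library left out. The fit without 3 libraries was chosen after seeing the data.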

Additional observations from a re-analysis of the deposited data

Results flagged for a closer look

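For 19 genes named in the text or in a list, the genotype effect differed between 38 °C and 22 °C by a test of the difference itself (edgeR's quasi-likelihood test with Benjamini-Hochberg adjustment over all genes tested). The lists alone held 423 distinct tested members. Over all genes tested, 374 passed that test (1.59%). Each value below is the log2 fold change of mutant over wild type at 38 °C minus that at 22 °C. Among the genes that passed at 22 °C the difference was 2.31 for CDKB1;2, 1.27 for ARR4 and 0.70 for MDAR1. Of heat genes, it was -2.16 for HSFB2A, -2.38 for HSFB2B and -1.09 for the disaggregase gene HSP101, none of which passed at 22 °C by edgeR. Other type-A response regulators had 1.55 (ARR5), 1.19 (ARR6) and 1.56 (ARR7). TCH2, a calmodulin-like touch gene, had 1.22. In the EXORDIUM family of cell expansion, EXL2 had -1.78 and EXL5 had 1.31. The clock genes TOC1 and PRR5 had -0.54 and 0.75, and the light factor PIF1 had -0.95. SPX1 and G3Pp1, genes of phosphate starvation, had 1.32 and 1.19. BAM9, a beta-amylase gene, had -1.48, and ABF3, a factor of abscisic acid signalling, had -1.46.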

How the results depend on the processing

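No gene that passed changed direction under an alternative: over all genes that passed and all settings, 708 values kept their call and 145 did not, and among members that did not pass 31 gained one. The count of 45 (38 higher, 7 lower) was 245 (150 and 95) by DESeq2, and 25 to 42 with 1 unheated library left out (20 to 37 higher, 3 to 12 lower). With the unheated libraries alone 35 passed, 3 of them lower, and 31 of the 45 were among the 35. A change of at least 2-fold left 3 lower genes. Limma on log2(FPKM + 1) called 61 genes and 59 passed without the 3 libraries that stood apart. Scaling moved the median of all genes by under 0.1 on the log2 scale. XBAT31 passed in every alternative. With a replicate block 37 genes passed, 33 of the 45 among them. Deviations of samples with the same replicate number correlated at -0.10 to 0.02 (3 pairs) and others at -0.08 to 0.14. So few pairs cannot show whether replicates of 1 number shared a batch. Low wild-type levels, under 1 FPKM for ERF105, ERF104 and ERF6, leave the size of their folds uncertain.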
